A study of Mus musculus with 68 samples.

Results

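Tmem252, Sfn, Misp, Lor and Gadd45a are 5 of the 56748 genes in the deposited table. They were chosen by their read counts in mouse kidney, which were higher 2 h after an injection of Egf than after vehicle, and all 5 were found by symbol. Kidney values at 2 h are therefore given as a description, with no test, and tests are kept for libraries that did not serve to choose the genes. Poly(A) RNA came from 4 organs (heart, lung, kidney, liver) of wild-type C57BL/6J mice, all female and 10 weeks old. The 68 libraries form 20 groups, 17 libraries in each of the 4 organs. Egf mice received 1 mg/kg of the growth factor dissolved in PBS behind the eye, into the retro-orbital vessels, and vehicle mice received 50 to 60 µL of PBS alone. Both were anaesthetised with isoflurane for the injection, and each harvest, at 2 h or 6 h, took less than 4 min. Each organ had 4 Egf and 3 vehicle libraries at each time. A further 3 libraries per organ came from mice that received no injection.

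Egf binds the receptor Egfr on epithelial and other cells, and the receptor signals through the MAPK cascade to a first wave of genes that rise and fall within hours. The kidney is a major site of Egf production, and its tubules carry Egfr. The genes described here encode proteins with unlike roles. Gadd45a, the growth arrest and DNA damage gene, and Sfn, which encodes the sigma form of the 14-3-3 proteins, both act on the cell cycle and are known targets of p53. Misp encodes an actin-binding protein that anchors the mitotic spindle at the cell cortex. Lor encodes loricrin, the main protein of the cornified envelope of skin cells. Tmem252 encodes a transmembrane protein.

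Promoter sequences are shown for the genes that share the kidney rise, because motifs of factors downstream of Egfr can be looked for in them. RefSeq entries were found for Tmem252, Sfn, Lor and Gadd45a, and Misp had none. Each run is the 250 bases before the start of the gene on build GRCm38.p6, 5′ to 3′ on the gene's strand, in lower case. Capitals mark matches to the motifs searched.
Tmem252, chr19:24673758-24674007, plus strand: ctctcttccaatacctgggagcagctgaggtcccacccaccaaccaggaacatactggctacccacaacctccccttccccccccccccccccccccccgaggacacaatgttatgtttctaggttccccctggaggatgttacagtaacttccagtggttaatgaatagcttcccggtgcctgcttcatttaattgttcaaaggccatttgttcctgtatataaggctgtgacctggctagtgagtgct
Sfn, chr4:133602169-133602418, minus strand: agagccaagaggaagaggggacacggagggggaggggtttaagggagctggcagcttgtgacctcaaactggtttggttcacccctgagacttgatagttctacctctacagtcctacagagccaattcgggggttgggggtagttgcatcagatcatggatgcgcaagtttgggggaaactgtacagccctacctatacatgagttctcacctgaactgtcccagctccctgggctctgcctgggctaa
Lor, chr3:92083143-92083392, minus strand: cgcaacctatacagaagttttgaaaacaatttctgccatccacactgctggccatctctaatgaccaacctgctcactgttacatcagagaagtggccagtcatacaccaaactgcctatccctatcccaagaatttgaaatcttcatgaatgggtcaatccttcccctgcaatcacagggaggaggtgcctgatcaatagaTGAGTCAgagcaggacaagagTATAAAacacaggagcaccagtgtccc
Gadd45a, chr6:67037408-67037657, minus strand: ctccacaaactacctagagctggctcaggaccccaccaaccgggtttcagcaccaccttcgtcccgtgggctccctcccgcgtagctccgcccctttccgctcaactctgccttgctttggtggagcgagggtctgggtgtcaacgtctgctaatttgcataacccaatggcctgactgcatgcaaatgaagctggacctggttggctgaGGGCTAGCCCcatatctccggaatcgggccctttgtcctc

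In the Lor promoter the AP-1 motif TGANTCA matched as TGAGTCA from -48 to -42, and the TATA box motif TATAAA matched from -27 to -22, both counted in bases before the start. The Gadd45a promoter held 1 match, from -40 to -31, to the p53 motif searched, which is a part of a p53 site. A full p53 site was not searched. No motif searched matched in the windows of Tmem252 and Sfn, which says only that these letters are not there. The other motifs searched were CRE (TGACGTCA), Egr (GCGTGGGCG or GCGGGGGCG), Ets (CCGGAAG) and the CArG box by name, all on both strands and over 300 bases, 50 of them after the start. Of the 32851 promoters in the table, 7.81% held AP-1, 13.6% the TATA box and 8.36% this part of a p53 site. The shares of the others were 1.79% for CRE, 3.47% for Egr, 8.86% for Ets and 1.63% for the CArG box. A match is a description of the letters, not a bound site, and the motifs do not overlap each other in these sequences.

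Depth was similar in all organs, with 13271813 to 24972005 counted reads per library and a median of 17759346.5. Levels are CPM (counts scaled to the size of the library, with TMM factors within the organ) unless said otherwise, and marker sums are CPM without those factors. Changes are log2 Egf over vehicle with the standard error (SE). Adjusted p values come from edgeR's quasi-likelihood test with Benjamini-Hochberg adjustment over all genes tested in that comparison, and a value under 0.05 counts as a call. Some libraries stand apart in ways that bear on these genes. Egf lung replicate 4 at 6 h had keratinocyte markers at 737 CPM in sum, and vehicle heart replicate 1 at 2 h had kidney tubule and glomerulus markers at 2286 CPM. Most results that rest on either are given with and without it. Hepatocyte markers reached 25898 CPM in Egf lung replicate 3 at 6 h. Each organ carried its own markers at a high level, from 13143 CPM in sum for kidney and 26886 CPM for heart to 46328 CPM for lung and 89520 CPM for liver at the lowest. In whole organs, fewer cells of a type and less RNA per cell cannot be told apart.

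In kidney at 2 h, each of the 4 Egf libraries stood above all 13 other kidney libraries for each of the 5 genes. The genes were chosen for a rise in these libraries, so this order is no separate result. An Egf group above the vehicle group with no overlap occurred for 3.29% of all genes in that comparison. Tmem252 (ENSMUSG00000048572, mm39 chr19:24651372-24659597, plus strand) had 308, 227, 260 and 332 CPM after Egf and 85.1, 69.1 and 111 CPM after vehicle. Untreated kidneys had 61.9, 69.8 and 77.3 CPM, so that the injected controls overlapped the mice left alone. The difference between Egf and vehicle was 1.67 ± 0.18 on the log2 scale, 3.19-fold. At 3671 to 5130 reads per Egf library, Tmem252 was the most deeply counted of the genes in kidney.

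Sfn (ENSMUSG00000047281, chr4:133327867-133329479, minus strand), whose product holds Cdc25 phosphatases and other phosphorylated partners in the cytoplasm, had 24.5, 21.9, 20.5 and 30.2 CPM after Egf at 2 h. Vehicle kidneys had 10.2, 9.87 and 13.3 CPM and untreated ones 9.79, 10.5 and 8.64 CPM. The Egf libraries lay above both control groups with no overlap, by 1.12 ± 0.17 against vehicle. Gadd45a (ENSMUSG00000036390, chr6:67012080-67014441, minus strand), whose product binds Pcna and the kinase Map3k4, had 21.5, 19.3, 23.8 and 25.6 CPM after Egf. The vehicle libraries had 11.8, 12.4 and 13.3 CPM and the untreated ones 11.2, 13.5 and 13.8 CPM. Its difference of 0.85 ± 0.13 was the smallest of the 5, and the groups did not overlap.

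Misp (ENSMUSG00000035852, chr10:79656823-79666324, plus strand) had 54.3, 51.0, 36.4 and 43.3 CPM after Egf at 2 h against 28.4, 18 and 23.8 CPM after vehicle, a difference of 0.98 ± 0.16. Untreated kidneys had 32.6, 30.1 and 24.2 CPM. The Egf kidneys were thus further above the vehicle mice than above the untreated mice, from which they differed by 0.68 ± 0.15. Lor (ENSMUSG00000043165, chr3:91987578-91990449, minus strand) was near the lower end of what these libraries count, with 42 to 80 reads in each Egf library. It had 3.40, 3.10, 2.82 and 5.18 CPM after Egf, 1.17, 1.08 and 0.872 CPM after vehicle and 0.398, 0.831 and 1.15 CPM in untreated kidneys. The Lor difference was 1.79 ± 0.33, the largest on the log2 scale with the widest SE.

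**Figure D1:**
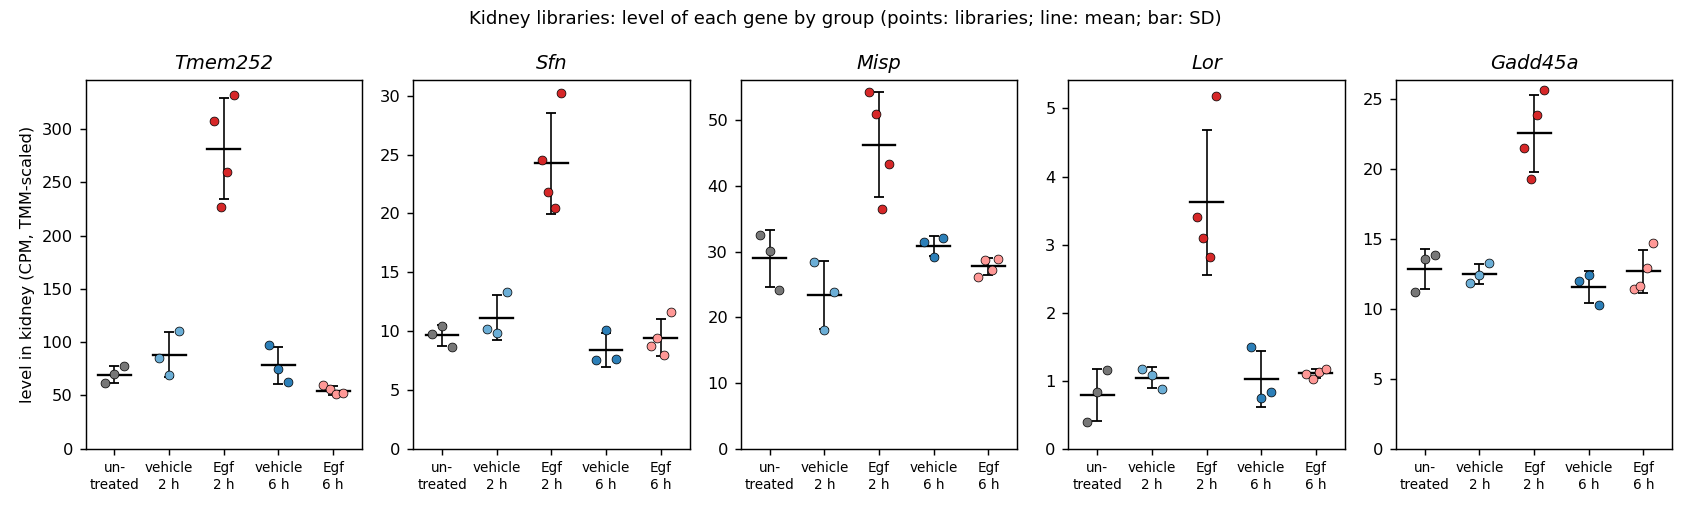
Level of each gene in kidney (CPM, TMM-scaled, axes from 0) in the 5 groups; points are libraries, lines are means and bars are SD. Each gene's 4 Egf libraries at 2 h sit above all 13 other libraries. The Egf libraries at 6 h lie within the range of the vehicle and untreated libraries for Sfn, Misp and Lor. For Tmem252 all 4 of them, at 50.9 to 59.6 CPM, are below that range, and for Gadd45a 1 of them, at 14.7 CPM, is above it.

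In that comparison 0.256% of the 15654 genes were called either way, 34 of them higher, and the genes described here were taken from those 34. By size of the log2 change Lor was the third, Tmem252 the fifth, Sfn number 9, Misp number 12 and Gadd45a number 17 of the 34. Cortical adrenal markers (Star, Cyp11a1, Cyp11b1, Cyp21a1 and Mc2r) summed to 17.6, 2.04, 47.3 and 15.7 CPM in the 4 Egf kidneys at 2 h and to at most 3.09 CPM in each other kidney library. Egf replicate 2 was at the level of the controls, with Cyp11a1, Cyp11b1 and Cyp21a1 at 0. With that library as the sole Egf library at 2 h, the differences were 1.37 ± 0.23 for Tmem252, 0.98 ± 0.23 for Sfn, 1.12 ± 0.19 for Misp, 1.57 ± 0.46 for Lor and 0.63 ± 0.18 for Gadd45a, where the single library is assumed to vary as the others do. Keratinocyte markers, which could come with Lor and Sfn, summed to 10.3 to 13 CPM after Egf and 6.68 to 15.4 CPM after vehicle. Urothelial markers summed to 18.9 to 35.9 CPM and 18.1 to 46.6 CPM. Markers of kidney injury summed to 2105 to 2198 CPM after Egf and 2178 to 2803 CPM after vehicle.

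At 6 h, in kidney libraries that had no part in the choice, edgeR called none of the 5 genes between Egf and vehicle. Of all 15654 genes it called 0%, although 986 had an unadjusted p below 0.05, DESeq2 called 37 and limma voom 798. Tmem252 had 59.6, 55.8, 50.9 and 52.0 CPM after Egf and 97.3, 75.0 and 62.3 CPM after vehicle. All 4 Egf kidneys were below all 3 vehicle kidneys, the opposite order to that at 2 h. The log2 difference was -0.52 ± 0.17 with edgeR adjusted p = 0.549. With limma voom and quality weights it was -0.71 with adjusted p = 0.0141, the single alternative of 14 in which it passed, and without vehicle replicate 1 it was -0.33. A lower Egf group with no overlap occurred for 4.44% of all genes in that comparison.

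Misp at 6 h had 26.2, 28.7, 27.2 and 28.9 CPM after Egf and 31.5, 29.2 and 32.0 CPM after vehicle. These groups did not overlap either, at a difference of -0.15 ± 0.15 (edgeR adjusted p = 0.827). Sfn had 8.76, 9.37, 7.99 and 11.6 CPM against 7.53, 10.1 and 7.63 CPM (0.17 ± 0.17, edgeR adjusted p = 0.831). Gadd45a had 11.4, 11.6, 12.9 and 14.7 CPM against 12, 12.4 and 10.3 CPM (0.13 ± 0.13, edgeR adjusted p = 0.826). Lor had 1.10, 1.02, 1.13 and 1.18 CPM against 1.5, 0.752 and 0.830 CPM (0.10 ± 0.33, edgeR adjusted p = 0.938). In these 3 genes the groups overlapped. Set beside the 2 h values, the log2 change was lower at 6 h by 2.19 ± 0.24 for Tmem252, 1.69 ± 0.46 for Lor, 1.14 ± 0.22 for Misp, 0.96 ± 0.24 for Sfn and 0.72 ± 0.18 for Gadd45a, values given without a test because they use the 2 h libraries. As for the injection alone, at 6 h vehicle kidneys differed from untreated ones by -0.20 (Sfn) to 0.39 (Lor), and none was called (background 0.211% of genes).

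Lung came closest to the kidney for Sfn. At 2 h lung libraries had 49.6, 50.5, 56.9 and 36.9 CPM of Sfn after Egf and 18.2, 26.2 and 19.2 CPM after vehicle, with no overlap, an order that 5.65% of all genes showed in that comparison. Untreated lungs had 15.9, 21 and 15.2 CPM, of which 1 lay within the range of the vehicle group and the others below it. The log2 difference was 1.19 ± 0.89 and was not called, with edgeR adjusted p = 0.834. That wide SE came from the fit over all 17 lung libraries, which includes Egf replicate 4 at 6 h with 226 CPM of Sfn. Without that library the difference was 1.19 with adjusted p = 0.0035, and in a fit of the 2 h Egf and vehicle groups alone it was 1.18 with adjusted p = 0.0363. Both of these edgeR values are calls, the other alternatives gave none, and DESeq2 gave no adjusted p; the values ran from 0.0035 to 0.958. With a covariate for hepatocyte markers the difference was 0.80; those markers summed to 3191, 1076, 352 and 1667 CPM after Egf and 57.6, 4.94 and 494 CPM after vehicle, and their part in the result was not tested. Keratinocyte markers summed to 4.82 to 9.93 CPM in the 4 Egf lungs and 4.15 to 5.62 CPM in the 3 vehicle lungs.

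Tmem252 in lung at 2 h had 52.6, 51.7, 61.7 and 85.3 CPM after Egf and 40.0, 42.2 and 47.5 CPM after vehicle. The Egf group was above vehicle with no overlap, by 0.54 ± 0.18, and was not called (edgeR adjusted p = 0.284, between 0.0695 and 0.608 over the alternatives). Of the 16778 genes tested in that comparison 0.84% were called. Gadd45a in the same lungs had 8.60, 9.72, 9.74 and 8.47 CPM against 9.55, 9.19 and 8.04 CPM, and Misp had 5.90, 5.96, 7.28 and 4.57 CPM against 6.11, 7.60 and 6.03 CPM. Both genes overlapped between the groups. The differences were 0.03 ± 0.15 for Gadd45a, whose kidney libraries differed by 0.85, and -0.15 ± 0.17 for Misp.

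At 6 h in lung the edgeR calls were 0% of all genes, where 907 had an unadjusted p below 0.05 and DESeq2 called 10. Lor had 0.634, 0.666, 1.00 and 2605 CPM in the 4 Egf lungs and 0.854, 0.380 and 0.665 CPM in the vehicle lungs. A single library thus carried the fitted difference of 9.97 ± 3.08, which was not called. The same library had 226 CPM of Sfn where the other 3 had 13.8, 13.4 and 12 CPM. In it Krt5 was at 561 CPM, Krt14 at 109 CPM and the desmosomal gene Dsg3 at 46.6 CPM, and Dsg3 was at 0 in the other 3 Egf lungs at that time. Keratinocyte markers summed to 737 CPM there and to at most 28.7 CPM in any other lung library. The urothelial list stood at 362 CPM, 298 CPM of it Krt15, while Upk1b, the uroplakin of highest level there, was at 57.7 CPM beside 52.8 to 67.4 CPM in the other 3. Without that library the Sfn and Lor differences at 6 h fell to 0.02 and 0.26. Tmem252 (25.9, 24.4, 23 and 27.7 CPM against 31.1, 23 and 32.4 CPM) and Misp (5.90 to 8.07 CPM against 7.31 to 9.66 CPM) overlapped between the groups. Gadd45a had 6.86, 5.84, 5.90 and 5.59 CPM against 6.14, 9.05 and 9.05 CPM, with 1 vehicle lung among the Egf lungs, and a difference of -0.42 ± 0.15 (edgeR adjusted p = 0.902).

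**Figure D2:**
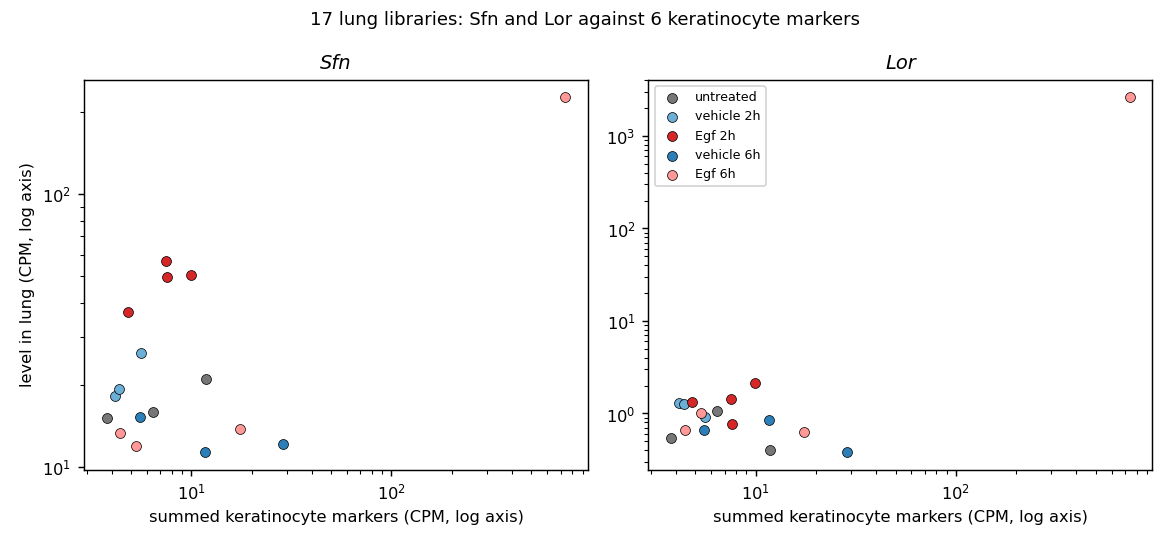
Level of Sfn (left) and Lor (right) in the 17 lung libraries against the summed level of 6 keratinocyte markers, both in CPM on log axes, coloured by group. One Egf library at 6 h lies apart at 737 CPM of markers, and the 4 Egf libraries at 2 h have 36.9 to 56.9 CPM of Sfn at marker sums of at most 9.93 CPM.

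In liver the gene nearest to a call was Gadd45a. It had 3.36, 4.32, 1.51 and 3.20 CPM after Egf at 2 h and 1.72, 1.75 and 1.40 CPM after vehicle. Egf replicate 3 lay among the vehicle libraries and the other 3 above them. The log2 difference was 0.93 ± 0.35, close to the 0.85 of kidney in size, but was not called (edgeR adjusted p = 0.175, between 0.0564 and 0.43 over the alternatives, against a background of 3.92% of 13592 genes called). At 6 h the order was the other way, with 1.28, 2.35, 1.49 and 1.16 CPM against 2.47, 1.72 and 3.09 CPM (-0.63 ± 0.34, edgeR adjusted p = 0.615, background 0.0883%). The change between the times was -1.57 ± 0.49 and missed the threshold (edgeR adjusted p = 0.143, background 1.03%). Untreated livers had 2.52, 1.93 and 3.44 CPM, all above the 3 vehicle livers at 2 h, at a difference of -0.70 ± 0.37 that was not called. A lower vehicle group with no overlap occurred for 11.6% of all genes in that comparison. Egf liver replicate 1 at 2 h had 123 CPM of adrenal cortex markers, where each other liver had at most 1.67 CPM, and their part in the result was not tested.

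The other 4 genes were low in liver. Sfn had 0 to 12 reads and Misp 3 to 18 reads per liver library, and neither passed the filter on low counts, so no change could be assessed at this depth. Tmem252 had 7 to 24 reads, at 0.447 to 1.41 CPM, and differed by 0.28 ± 0.37 at 2 h. Lor had 0.765, 9.25, 2.08 and 1.19 CPM after Egf and 0.933, 2.49 and 1.26 CPM after vehicle at 2 h, and its difference of 1.08 ± 0.73 turned to -0.23 without Egf replicate 2. The 6 keratinocyte markers summed to 2.19 CPM in that library, all of it Krt10 with the other 5 at 0, and to between 0.254 and 1.47 CPM in the other livers. It was the highest sum of the 17 livers, and its part in the Lor value was not tested.

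Heart gave no call for any gene. Gadd45a had 8.39, 9.06, 7.65 and 9.78 CPM in Egf hearts at 2 h and 11.4, 11.2 and 10.4 CPM in vehicle hearts. The Egf group was lower with no overlap, by -0.34 ± 0.15 (edgeR adjusted p = 0.635), the opposite side to kidney. A lower Egf group with no overlap occurred for 2.59% of all genes there, and 0.211% were called. Markers of other cells varied among these hearts. Hepatocyte markers summed to 914, 76.3, 8794 and 71.5 CPM in the Egf hearts and 77.6, 35.2 and 85.6 CPM in the vehicle hearts, so that the groups overlapped. The Egf heart with most of them, replicate 3, had the lowest Gadd45a of these hearts. Untreated hearts had 1032 to 14055 CPM of hepatocyte markers and 8.25 to 11.1 CPM of Gadd45a. Leukocyte markers summed to 5.64 to 23.1 CPM after Egf and 2.52 to 4.21 CPM after vehicle, with no overlap. With a covariate for the hepatocyte markers the Gadd45a difference was -0.33, and without Egf heart replicate 3 it was -0.28, neither called. The part of leukocytes was not tested. Tmem252 had 31.4, 27.0, 32.2 and 34.6 CPM against 64.9, 25.6 and 29.3 CPM, and its difference of -0.35 ± 0.29 turned to 0.19 without the highest vehicle library. Misp had 0, 0.339, 0.363 and 0 CPM against 6.25, 0.307 and 0 CPM, and its difference of -3.55 ± 1.66 turned to 0.32 without the same library. Sfn had 1.01, 5.52, 2.10 and 1.23 CPM against 6.25, 0.691 and 0.469 CPM, with full overlap. Lor lay between 0.23 and 0.765 CPM in these 7 hearts.

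The heart library with 6.25 CPM of Misp was the one with 2286 CPM of kidney markers, listed above. The 4 heart libraries with most kidney markers (2286, 859, 787 and 786 CPM) were also the 4 with most Misp (6.25, 1.31, 1.14 and 0.704 CPM), one each from the vehicle 2 h, untreated, Egf 6 h and vehicle 6 h groups. In the other 13 hearts kidney markers were at most 440 CPM and Misp at most 0.5 CPM. The part of kidney tissue in the Misp level of heart was not tested. At 6 h heart differences ran from -0.20 (Gadd45a) to 1.74 (Sfn), none called, with 0.0128% of all genes called. The Sfn value at 6 h rests on Egf replicate 4, which had 5.71 CPM of Sfn and 38.0 CPM of keratinocyte markers, the most of any heart. Without that library the Sfn difference was 0.58.

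**Figure D3:**
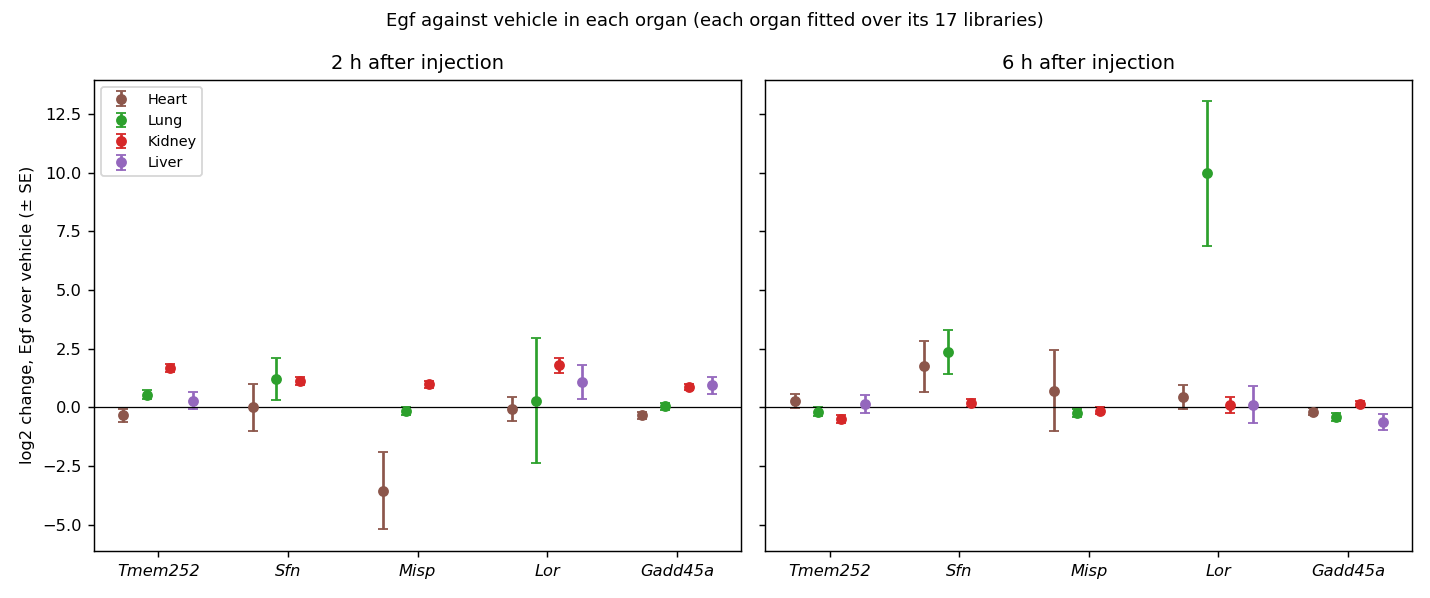
Log2 change of Egf over vehicle (points, with SE as bars) for each gene at 2 h (left) and 6 h (right), coloured by organ; Sfn and Misp have no liver value. Kidney at 2 h lies between 0.85 and 1.79 for all 5 genes and at 6 h between -0.52 and 0.17, and the wide bars in heart and lung belong to genes with a library that stands apart.

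Over the 3 organs and the kidney at 6 h, 31 tests of Egf against vehicle called 0 members by edgeR, with 7 at an unadjusted p below 0.05. Among the 7, Sfn and Lor in lung at 6 h rest on the library rich in keratinocyte markers. Over all genes, the share with such a p was lowest in lung at 6 h (907 of 16778) and highest in liver at 2 h (2001 of 13592). The 31 tests of vehicle against untreated mice called 0, with 0 at an unadjusted p below 0.05 and log2 differences from -0.79 to 2.15. Over all genes in these comparisons, the share with such a p was lowest in kidney at 6 h (1113 of 15654). It was highest in liver at 2 h (2256 of 13592). The background of called genes for these tests was 0.0128% in heart at 2 h and 0.0192% at 6 h, 0.0656% and 0.101% in lung, and 0.155% and 0.67% in liver. The 13 tests of a change in the Egf effect between 6 h and 2 h in heart, lung and liver also called 0, with 3 at an unadjusted p below 0.05. Among the 3, Lor in lung rests on that same lung library. Over all genes such a p was held by 662 of 15618 in heart, 962 of 16778 in lung and 1913 of 13592 in liver. Background shares were 0.0128% in heart and 0.0417% in lung. The largest of these outside liver that did not rest on a single library was that of Tmem252 in lung, at -0.73 ± 0.26 (edgeR adjusted p = 0.624).

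A direct test among heart, lung and liver at 2 h gave 1 call, for Gadd45a. In the fit over all 68 libraries its log2 change was -0.33 ± 0.19 in heart, 0.03 ± 0.20 in lung and 0.97 ± 0.23 in liver, with edgeR adjusted p = 0.0196 for a difference among them. The background was 2.29% of 18736 genes. With the mouse as a replicate block the adjusted p was 0.0515, no longer a call. Kidney, not part of that test, stood at 0.86 ± 0.20 in the same fit. Misp (edgeR adjusted p = 0.106), Tmem252 (0.286), Sfn (0.809) and Lor (0.965) did not pass. Without the 2 libraries that stand apart, the edgeR adjusted p was 0.818 for Misp, 0.820 for Tmem252 and 0.038 for Gadd45a. At 6 h no member differed among the 4 organs, against 0.048% of all genes called. The nearest was Lor with edgeR adjusted p = 0.0593 through the lung library described above, and no value without that library is given.

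Untreated mice show where the genes are expressed without an injection. Levels in these comparisons are on the scale shared by all 68 libraries and should not be set against the organ-wise values above. Tmem252 ran from kidney (60.5 CPM) through heart (37.6 CPM) and lung (22.8 CPM) to liver (1.45 CPM), and all 6 organ pairs were called. Kidney was 1.61 times heart (edgeR adjusted p = 0.0124), and that pair was no longer called without untreated replicate 1 or 3. Heart was 1.64 times lung (adjusted p = 0.00857), and that pair was lost without replicate 3 or the filter on low counts. Kidney exceeded liver 41.5-fold.

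Misp was the most kidney-weighted, with 25.1 CPM in kidney, 4.76 CPM in lung, 0.701 CPM in liver and 0.544 CPM in heart. Kidney was 5.27 times lung, and liver and heart were not told apart (edgeR adjusted p = 0.788). Untreated hearts had 0.068, 1.47 and 0.089 CPM of Misp, from 1, 20 and 1 reads. The highest of them was the library with 859 CPM of kidney markers, whose part was not tested. Untreated livers had 0.632 to 0.736 CPM of Misp, which did not pass the filter on low counts within liver. Sfn had 11.2 CPM in lung and 8.35 CPM in kidney, which did not differ beyond their spread (adjusted p = 0.614). It was lower in heart (1.10 CPM) and liver (0.328 CPM), which were not told apart either (adjusted p = 0.246), though they were with the mouse as a replicate block (adjusted p = 0.0119). Gadd45a had 11.2 CPM in both heart and kidney, above lung (5.34 CPM) and liver (4.16 CPM). The upper pair (edgeR adjusted p = 0.99) and the lower pair (0.148) were each not told apart, while the 4 steps between them were called.

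Lor was low everywhere in untreated mice, at 1.81 CPM in liver, 0.731 CPM in heart, 0.691 CPM in kidney and 0.433 CPM in lung, and no pair was called. The spread in that fit included the lung library with 2605 CPM. Without that library and the vehicle heart that stands apart, liver exceeded lung (edgeR adjusted p = 0.00284) and kidney (adjusted p = 0.0461). With the mouse as a replicate block, liver exceeded lung (adjusted p = 0.0187), while kidney and liver were not told apart (adjusted p = 0.0925). Of the 30 organ pairs over the 5 genes 19 were called. The organs differ so widely that 66.3% of all genes were called between heart and lung, 61.7% between heart and kidney, 61.9% between heart and liver, 63.8% between lung and kidney, 71% between lung and liver and 56.4% between kidney and liver. Per kilobase of transcript, in RPKM on that scale, untreated kidney held 12 ± 1.43 (SD, n = 3) of Tmem252, 8.82 ± 1.24 of Misp, 6.33 ± 0.738 of Gadd45a, 5.18 ± 0.456 of Sfn and 0.388 ± 0.188 of Lor.

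**Figure D4:**
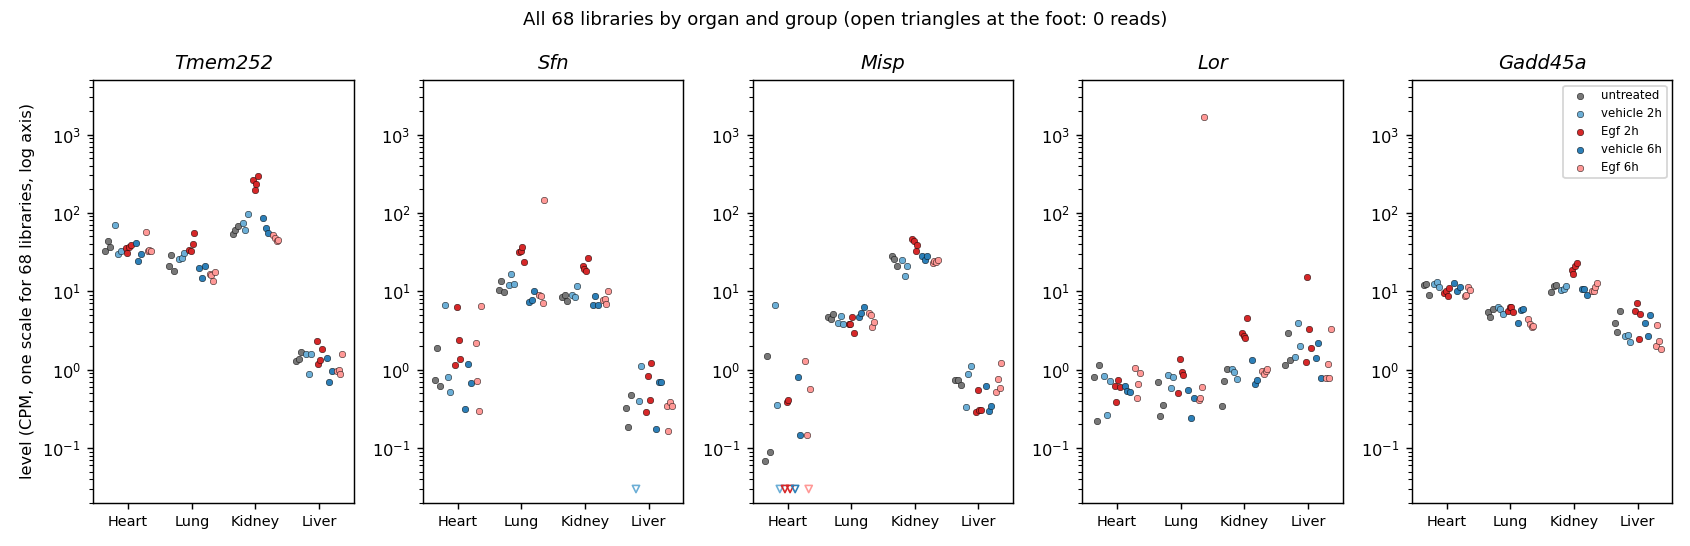
Level of each gene in all 68 libraries (CPM on the scale shared by all of them, log axis) by organ, with groups from left to right as untreated, vehicle 2 h, Egf 2 h, vehicle 6 h and Egf 6 h; open triangles mark 0 reads. The Egf 2 h kidneys form the top of the kidney column for each gene, and the lung library with 2605 CPM of Lor on the lung's own scale stands alone.

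No other gene on 4 lists of related genes was called in kidney at 2 h, where 0.256% of all genes were called. At that share, lists of this size would seldom hold a call. Of 25 genes of growth arrest and the DNA damage response, 25 were tested, 0 rose and 0 fell, with a median log2 change of -0.05 beside -0.01 over all genes. The smallest p were those of Sesn2 (0.64 ± 0.14, edgeR adjusted p = 0.0841), Cdkn1a, which encodes the p21 inhibitor of cyclin-dependent kinases (0.80 ± 0.18, adjusted p = 0.0902), Plk3 (0.98 ± 0.34) and Tigar (-0.47 ± 0.20). Of the relatives of Gadd45a, Gadd45b was at -0.17 ± 0.26 and Gadd45g at 0.42 ± 0.40. Among 10 genes of the 14-3-3 family and its partners 9 were tested, 0 rose and 0 fell, with a median of 0.09. Ywhag, the next family member to Sfn by p, had 0.39 ± 0.13 (edgeR adjusted p = 0.372), and Cdc25b, Ywhae and Ywhaz had -0.60, 0.17 and 0.39.

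Of 26 genes of the cornified envelope and squamous differentiation, 12 were tested in kidney, 0 rose and 0 fell, with a median of 0.09. Tgm1, the transglutaminase that cross-links loricrin in skin, went from 26 to 42.1 CPM (0.70 ± 0.16, edgeR adjusted p = 0.0913). Krt14 (1.41 ± 0.54), Evpl (-0.77 ± 0.35) and Ovol1 (-0.36 ± 0.17) were the next by p. In liver at 2 h the same list had 5 genes tested and 2 that rose, Tgm1 (2.21 ± 0.28, edgeR adjusted p = 7.03e-05) and Ppl, which encodes periplakin (2.14 ± 0.53, adjusted p = 0.0288). Of all liver genes 3.92% were called in that comparison. Without the filter on low counts 1 gene of the list was called in place of 2. Lor itself was not called there. Of 13 genes of the cell cortex and spindle orientation 13 were tested in kidney, 0 rose and 0 fell, with a median of -0.0023. The smallest p were those of Mapre1 (0.16 ± 0.09), Numa1 (-0.38 ± 0.32), Dctn1 (-0.28 ± 0.26) and Misp3, a relative of Misp (-0.30 ± 0.28). Liver at 2 h, against the same 3.92% of genes called, had 2 falls among 25 tested genes of the growth arrest list, Bbc3 (-2.16 ± 0.38) and Sesn1 (-0.73 ± 0.16). It had 1 rise among 11 tested genes of the cortex list, Mapre1 (0.48 ± 0.13), which was not called without the filter on low counts. Only 2 of those 11 genes had a positive change, with a median of -0.42 beside -0.02 over all genes. An unadjusted edgeR p below 0.05 was held by 5 of them. At 2 h in lung and heart, and at 6 h in each organ, no gene of the 4 lists was called by edgeR. In each of these comparisons at most 0.84% of all genes were called. The cornified envelope list came nearest in lung at 6 h, with 8 of 15 tested genes at an unadjusted p below 0.05 and a median of 1.94, in the comparison that holds the library rich in keratinocyte markers.

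The tested genes next to these 5 on the chromosome were not called in kidney at 2 h. Pgm5 lies 783 bases from Tmem252 and had a log2 difference of -0.12 ± 0.21, and Palm lies 93 bases from Misp and had -0.07 ± 0.14. Gpn2 (-0.18 ± 0.17) and Zdhhc18 (0.09 ± 0.13) flank Sfn, Gng12 (0.08 ± 0.08) and Gm8566 (-0.20 ± 0.15) flank Gadd45a, and S100a6 (-0.28 ± 0.31) and Sprr2a1 (-0.22 ± 0.61) are the nearest tested genes to Lor. None of the 10 neighbours, which also include Fam122a and E130317F20Rik, was called, against 0.256% of all genes in that comparison. The libraries were not directional, so reads of overlapping genes cannot be told apart. The table annotates E230016M11Rik over Gadd45a, with at most 13 reads in a library, and an entry without reads over Tmem252.

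Across the 17 kidney libraries the genes whose log2 levels ran most like each member were in part the members themselves. Gadd45a was most like Sfn (Pearson r = 0.94), followed by Fjx1 (0.93) and Nopchap1 (0.92). Tmem252 was most like Nopchap1 (0.94), Fjx1 (0.92) and Sfn (0.92), and Sfn most like Actg1 (0.94), Gadd45a (0.94) and Nab2 (0.92). Misp was most like Smad3 (0.91), Efhd2 (0.88) and Hmgcs1 (0.87), and Lor most like Wwtr1 (0.92), Nab2 (0.91) and Srxn1 (0.89). These libraries share the 4 Egf kidneys by which the genes were chosen. Over the 13 other kidney libraries r between members ran from -0.31 (Misp and Gadd45a) to 0.52 (Sfn and Gadd45a). By Spearman's rho the nearest genes were others, Haao for Tmem252 (rho = 0.94), Ccdc120 for Sfn (0.87), Slc35e1, tied with Smad3, for Misp (0.83), Pim2 for Lor (0.85) and Tmem19 for Gadd45a (0.87).

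Likeness was also measured over the 20 group means of all organs. Misp ran most like Pls1 (r = 0.99), which encodes the actin-bundling protein plastin of brush borders, Vill (0.99), which encodes a relative of villin, and Papss1 (0.98). Tmem252 was most like Tbc1d19 (0.98), Slc25a36 (0.98) and Tmem150c (0.98), and Sfn most like Zswim6 (0.97), Klrg2 (0.97) and Kctd12 (0.97). Gadd45a was most like Lancl3 (0.95), Fbxo44 (0.94) and Atpif1 (0.94). Lor had no close match by Pearson r, with Brdt (0.70), Rnh1 (0.69) and Mt2 (0.69) at the top. By Spearman's rho it was most like Lsr (0.84), Dbr1 (0.84) and Desi1 (0.82). The group means include the lung library with 2605 CPM of Lor and 226 CPM of Sfn, and no r without it is given. These points share mice, libraries and depth, and no p is attached to them.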

How the data were processed

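Poly(A) RNA was sequenced in 68 mouse libraries, per the labels. The authors deposited raw read counts per gene for 56748 genes. Per the submitters' processing notes, reads were aligned with HISAT2 2.0.5 and counted with featureCounts 1.5.0-p3 on mm39. Which annotation release was used is not given in the sources here. Per the labels' protocols the libraries were not directional. Coordinates of genes come from the deposited table; promoters come from RefSeq on GRCm38.p6, an older build, and their coordinates are not interchangeable.

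Counts were analysed in R 4.3.3 with edgeR 4.0.16 (filterByExpr, TMM, robust quasi-likelihood F tests), per organ over 17 libraries with 1 coefficient per group. Organ comparisons used 1 fit over all 68 libraries and 18736 genes. Benjamini-Hochberg adjustment covered each comparison's tested genes, with a threshold of 0.05. The SE is that implied by the F statistic. Marker sums used CPM of the plain totals. Likeness used log2 CPM with a prior count of 2, among genes averaging 1 CPM or more. CPM and RPKM were computed from the counts, RPKM with the gene lengths in the table. Alternatives were RLE, no filter, DESeq2 1.42.0, limma 3.58.1 voom with quality weights, only the groups compared, leaving out libraries, covariates for other organs' markers, and a block. The procedure was tested on simulated data.

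The members and lists were chosen with earlier results of these data known. Named besides the members are up to 4 genes of a list by smallest p, the nearest tested gene on each side and the 3 most alike by Pearson r on each scale; Gadd45b and Gadd45g were added after their values were seen. Within an organ, equal replicate numbers carry different label numbers, taken as different mice. Libraries that share a label number across organs were taken as 1 mouse. Of the 6 same-numbered Egf and vehicle pairs per organ, 2 (heart) or 3 (the other organs) correlated positively in their deviations from the group means. These few pairs showed no pairing by replicate number. Between 2 organs, 8 to 14 of 17 pairs with 1 label number correlated positively, with median r from -0.02 to 0.07. The shared mouse thus rests on the labels alone. No label says outright that each library is a separate mouse, so p values measure the spread between these samples, which may be in part technical. The depth was 13271813 to 24972005 reads per library; the common biological coefficient of variation ran from 0.192 (kidney) and 0.224 (liver) to 0.283 (lung) and 0.389 (heart).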

Additional observations from a re-analysis of the deposited data

Results flagged for a closer look

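In 6 of the 40 groups of 4 Egf libraries examined, a single library lay far from the other 3. For normally distributed values, chance gives such a gap in about 1 group of 20. These CPM values need not be normally distributed and the groups share libraries, so that rate may not hold here. Lung Egf replicate 4 at 6 h had 2605 CPM of Lor, where the others had 0.634 to 1.00 CPM, and 226 CPM of Sfn, where the others had 12 to 13.8 CPM. Liver Egf replicate 2 at 2 h had 9.25 CPM of Lor (others 0.765 to 2.08 CPM) and 0.336 CPM of Misp (others 0.177 to 0.189 CPM). Misp had only 3 to 18 reads per liver library and did not pass the filter on low counts there. Liver Egf replicate 4 at 6 h had 2.06 CPM of Lor (others 0.498 to 0.748 CPM). Heart Egf replicate 1 at 6 h had 49.4 CPM of Tmem252 (others 28.3 to 31.0 CPM); its kidney markers summed to 787 CPM, the most of the Egf hearts at 6 h, and their part was not tested.

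The effect of Egf on Gadd45a at 2 h differed among heart, lung and liver by a direct test in edgeR (adjusted p = 0.0196), with log2 changes of -0.33, 0.03 and 0.97. Libraries that share a number across organs were taken to come from 1 mouse, and with the mouse as a replicate block the difference was no longer called (adjusted p = 0.0515).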

How the results depend on the processing

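For the 5 kidney differences at 2 h, the alternatives reuse the libraries by which the genes were chosen. They are therefore no separate test of the direction. All 75 values were above 0. Their ranges were 1.37 to 1.87 for Tmem252, 0.91 to 1.27 for Sfn, 0.82 to 1.14 for Misp, 1.57 to 1.89 for Lor and 0.63 to 0.92 for Gadd45a, the lowest for Tmem252, Lor and Gadd45a being those with Egf replicate 2 alone. Of 71 results at least 1 SE from 0, the 5 of kidney at 2 h among them, 64 kept their direction under each alternative run and 7 did not. Of 49 results nearer to 0, 29 changed sign under some alternative. Leaving out 1 replicate at a time gave log2 ranges across 0 for Egf at 2 h in heart (-0.59 to 0.19 for Tmem252, -4.20 to 0.32 for Misp), for vehicle at 2 h against untreated heart (-0.77 to 1.98 for Sfn, -1.73 to 4.84 for Misp) and for Sfn in heart at 6 h against 2 h (-0.35 to 2.48), each crossing 0 without vehicle heart replicate 1. The ranges were -0.024 to 10.1 for Lor in lung at 6 h against 2 h, crossing 0 without Egf replicate 4 at 6 h, and -0.23 to 1.63 for Lor in liver at 2 h, crossing 0 without Egf replicate 2. With the hepatocyte covariate, Sfn in heart (vehicle at 2 h against untreated) was at -0.067. The cause of these changes was not tested.

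The count of members called was 0 in lung at 2 h, but 1 (Sfn) in a fit of the groups compared and 1 without Lung Egf replicate 4 at 6 h. It was 0 in kidney at 6 h, but 1 (Tmem252) with limma voom. Among heart, lung and liver at 2 h it was 1 (Gadd45a) and 0 with a replicate block of the mouse (adjusted p = 0.0515). Of the 101 results refitted with a replicate block, 4 changed their call: this count and its Gadd45a value, Sfn between untreated heart and liver, and Lor between untreated lung and liver. Within an organ the replicate block, whose numbers showed no pairing of samples, changed no call of a member. It moved the count of all genes called in kidney at 2 h from 40 to 4. That count of 40 was 1 with the adrenal covariate or the compared groups alone, 168 with DESeq2, 574 with limma voom and 6 to 59 leaving out 1 replicate. DESeq2 and limma voom called 101 and 12 genes in heart at 2 h (33 by edgeR), 322 and 822 in lung (141), and 755 and 1038 in liver (533); at 6 h they called 20 and 1649 in heart (2) and 65 and 99 in liver (12). Of 64 counts over the gene lists, 62 were as reported under RLE or no filter; without the filter, liver at 2 h had 1 called gene on the cornified envelope list and 0 on the cortex list.

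Depth limits Sfn and Misp in liver and Misp in heart, at a median of 4, 6 and 2 reads per library. Alternatives added after seeing the data were those without Lung Egf replicate 4 at 6 h or vehicle heart replicate 1 in comparisons that do not hold them, without both, and with Egf kidney replicate 2 alone.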
